A study of Homo sapiens with 6 samples.

Results

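The 10 genes described here govern the passage of a cell through G1: the D-type cyclins CCND1, CCND2 and CCND3, their kinases CDK4 and CDK6, the inhibitors CDKN1A, CDKN1B and CDKN2A, the pocket protein RB1 and the transcription factor MYC. They were chosen by name, as the rows of the count table whose gene identifier maps to one of these symbols, because cornulin has been reported to hold cells back at G1/S. All 10 were found among the 57820 genes of the table, and all 10 were among the 16396 genes with enough counts to test. Total RNA came from Cal27, a tongue squamous carcinoma line of human origin that the labels class as epithelial. Cornulin (CRNN) cells had received a lentivirus with the CRNN overexpression construct, GFP cells a lentivirus with the GFP control vector, and untreated cells none. Each group had 2 biological replicates, and the labels put all 6 in batch 1. The transduced cells were given 8 µg/ml polybrene and harvested at 48 h. For the untreated cells neither is stated, so transduction, polybrene and harvest time cannot be told apart in comparisons with them. The labels name no promoter for the constructs and no selection or cloning of the transduced cells.

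In G1, growth signals raise D-type cyclins, which bind CDK4 or CDK6, and the active kinases phosphorylate RB1. RB1 then lets go of E2F factors, and genes of DNA synthesis are transcribed. CDKN2A encodes p16, which blocks CDK4 and CDK6, while p21 (CDKN1A) and p27 (CDKN1B) restrain CDK2 complexes. MYC drives growth genes and is itself an early target of growth factor signals. In squamous carcinomas of the head and neck this circuit is often altered, with gain of CCND1 and loss of CDKN2A. All values here are of transcripts, so they do not show the proteins, their phosphorylation or their stability, through which much of this circuit is controlled.

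The libraries held between 11817105 and 28041227 counts, so that 3 counts were worth between 0.115 and 0.239 CPM, the unit of level used here (read counts relative to each library's total, adjusted with TMM factors). CRNN stood at 964 and 1028 CPM in the CRNN cells, 3.06 and 2.55 CPM in the GFP cells, and 3.51 and 2.08 CPM in the untreated cells. Replicates did not lie equally close. The median gap between them over all tested genes was 0.19 log2 units in CRNN cells, 0.47 in GFP cells and 0.43 in untreated cells. The first principal component (51.2% of the variance) placed untreated replicate 1 at 67.8 and the other 5 libraries between -21.2 and -8.53. All 8 squamous epithelial markers were detected in every library, and they summed to 4542 and 5269 CPM in CRNN cells, 2875 and 4049 CPM in GFP cells, and 5012 and 5489 CPM in untreated cells, with KRT5 the most abundant of them in each library. KRT17 had 176 and 182 CPM in CRNN cells, 173 and 67.6 CPM in GFP cells, and 1771 and 113 CPM in untreated cells. CDH1 had 79.5 and 73.3 CPM in CRNN cells, 108 and 111 CPM in GFP cells, and 281 and 116 CPM in untreated cells. Its log2 fold change was -1.38 for CRNN over untreated (SE 0.39, unadjusted p = 0.00688, adjusted p = 0.989, edgeR), and KRT17 and CDH1 were both highest in untreated replicate 1. The summed fibroblast markers (6 genes) were between 5.21 and 5.22 CPM in CRNN cells, between 6.44 and 9.10 CPM in GFP cells and between 3.96 and 5.50 CPM in untreated cells. The summed immune markers (6 genes) were between 8.02 and 9.52 CPM in CRNN cells, between 5.92 and 6.07 CPM in GFP cells and between 6.07 and 6.81 CPM in untreated cells, most of it CD14, and CD68 was at 0 counts in all GFP and untreated libraries. The 5 matched endothelial markers summed to 8.79 and 10.7 CPM in CRNN cells, 9.35 and 14.3 CPM in GFP cells, and 53.4 and 13.7 CPM in untreated cells. Most of it was CDH5, with 1307 counts in untreated replicate 1, while KDR had at most 1 count in any library. Mitochondrial messenger RNAs, listed for RNA quality, summed to 10461 and 6194 CPM in CRNN cells, 15097 and 11933 CPM in GFP cells, and 10117 and 12346 CPM in untreated cells. The part of these differences in the results below was not tested.

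No member passed the test in any of the 3 comparisons (edgeR quasi-likelihood test over all 16396 genes, adjusted p under 0.05). In CRNN over GFP the smallest adjusted p of a member was 0.999, and 0.0183% of all tested genes passed. In CRNN over untreated the smallest was 0.989, with 0.0061% of all genes passing. In GFP over untreated it was 0.711, and 0% of all genes passed. At an unadjusted p under 0.05 there was 1 member in CRNN over GFP (CCND1, lower), against 4.39% of all genes, 2.9% lower and 1.49% higher. In CRNN over untreated there were 3 (CCND1, CCND2 and MYC, all lower), against 4.48% of all genes, 2.96% lower and 1.52% higher. In GFP over untreated there was 1 (MYC, lower), against 6.93% of all genes, 2.9% lower and 4.03% higher. DESeq2 also passed 0 members in each comparison, against 0.134%, 0.0427% and 0.177% of all genes in the same order (22, 7 and 29 genes). At an unadjusted p under 0.05 DESeq2 gave 1, 3 and 1 members, against 3.56%, 4.43% and 6.72% of all genes. The limma-voom fit passed 0 members, against 0.0183%, 0.0061% and 0% of all genes, and gave 0, 2 and 0 members at an unadjusted p under 0.05, against 4.44%, 3.35% and 6.13% of all genes. With 2 libraries a group the intervals were wide, in CRNN over GFP from -0.85 to 0.30 log2 units for CDK6 and from -1.65 to 1.51 for CDKN1A, so a missed threshold does not show that levels were alike.

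**Figure D1:**
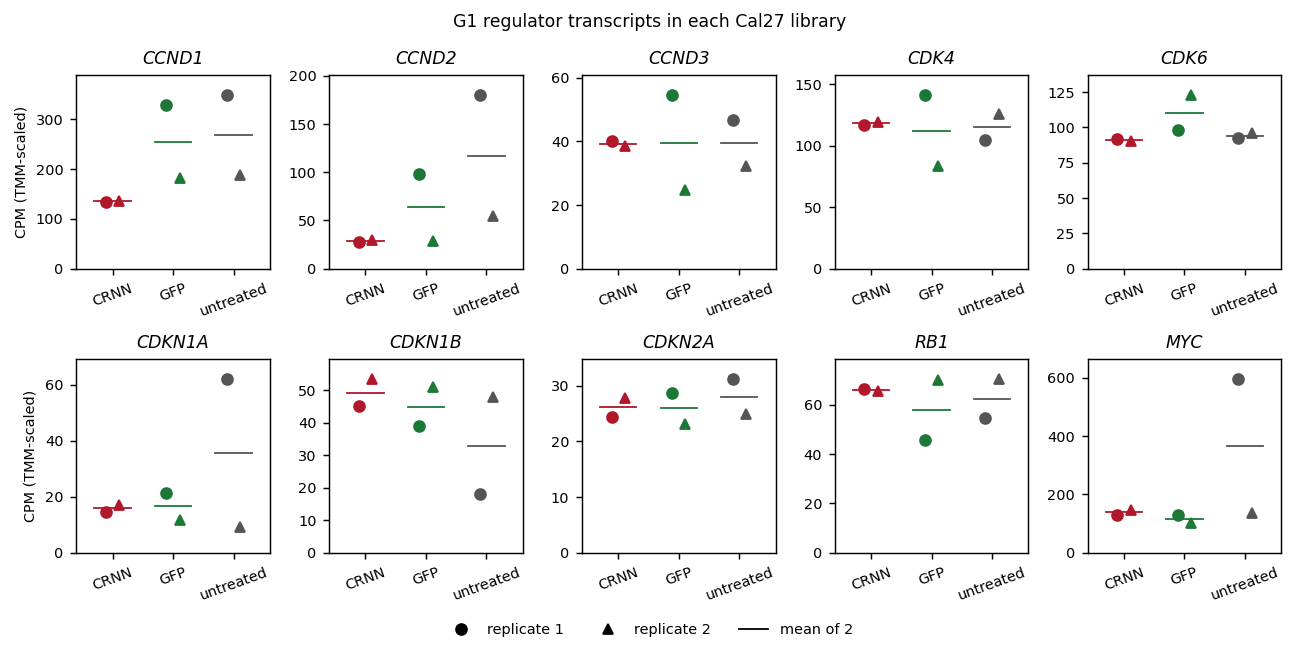
Level of each of the 10 transcripts in every library, in TMM-scaled CPM on linear axes from 0; circles are replicate 1, triangles replicate 2, and lines the mean of both. CCND1 was at 134 and 136 CPM in the CRNN cells, below all 4 other libraries, while MYC, CDKN1A and CCND2 had their highest value in untreated replicate 1.

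Levels per length of transcript give the order of the members among themselves. On average over the 6 libraries, in CPM per kb of the canonical transcript, CDK4 led with 61.9, followed by MYC with 55.4 and CCND1 with 51.8. CDKN2A stood at 27.3, CCND3 at 19.5, CDKN1B at 17.6 and RB1 at 13.0. CCND2 with 10.7, CDKN1A with 10.7 and CDK6 with 8.46 closed the order. Several places rest on untreated replicate 1, where MYC reached 160 CPM per kb against at most 39.7 in the other 5 libraries. Without that library, a mean added after the data were seen, CCND1 (45.7) stood above MYC (34.5), CDKN1B (19.6) above CCND3 (18.8), and CDK6 (8.56) above CCND2 (7.36) and CDKN1A (6.98). Neighbours in this order overlapped in their ranges over the libraries. CDK4 lay between 44.7 and 75.7 CPM per kb and CCND1 between 31.6 and 82.2, CCND3 between 12.3 and 26.9 and CDKN1B between 7.51 and 22.1.

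CCND1 encodes cyclin D1, the D-type cyclin that answers most directly to growth factor signals (ENSG00000110092.3; GRCh38 chromosome 11, 69641156 to 69654474, plus strand). It had 134 and 136 CPM in the CRNN libraries, 328 and 183 CPM in the GFP libraries, and 348 and 188 CPM in the untreated libraries. Both CRNN libraries lay below all 4 others, and in both controls replicate 1 was the higher library. The means were 135 ± 1.67 CPM in CRNN cells, 255 ± 103 in GFP cells and 268 ± 113 in untreated cells (SD, n = 2 each). The log2 fold change was -0.92 (SE 0.39, 95% interval -1.79 to -0.045) for CRNN over GFP, or 0.529-fold, and -0.99 (SE 0.39, interval -1.87 to -0.12) for CRNN over untreated, or 0.503-fold. Unadjusted p was 0.0414 and 0.0308, and neither passed after adjustment (0.999 and 0.989, edgeR). Without GFP replicate 1 the value over GFP was -0.43, and without untreated replicate 1 the value over untreated was -0.48. Between the controls, GFP over untreated, it was -0.071 (SE 0.38). In bulk RNA, fewer cells with a transcript and less of it per cell cannot be told apart.

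A comparison of the CRNN libraries with the GFP and untreated groups together was added after the data were seen. CCND1 had a log2 fold change of -0.95 there (SE 0.35, interval -1.74 to -0.17, unadjusted p = 0.0224, adjusted p = 0.999, edgeR). Members whose 2 CRNN libraries both lay outside the range of all 4 other libraries numbered 2, CCND1 and CDK6, both below, and 12.8% of all tested genes did so, 5.67% below and 7.12% above. For CDK6 that log2 fold change was -0.16 (SE 0.22), and after correction of GC content and length its CRNN pair overlapped both controls. CCND2 had -1.58 there (SE 0.58, unadjusted p = 0.0241, adjusted p = 0.999, edgeR). With CCND1 it made 2 members at an unadjusted p under 0.05, against 3.2% of all genes, and 0 passed after adjustment, against 0.0183% of all genes.

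CCND2 encodes cyclin D2, a D-type cyclin of narrower tissue range (ENSG00000118971.3; chromosome 12, 4269771 to 4305353, plus strand). It had 27.97 and 29.6 CPM in CRNN cells, 98.3 and 28.6 CPM in GFP cells, and 179.9 and 54.4 CPM in untreated cells. The CRNN libraries lay below both untreated libraries, but GFP replicate 2 fell between them. The log2 fold change was -2.02 for CRNN over untreated (SE 0.65, interval -3.49 to -0.56, unadjusted p = 0.0123, adjusted p = 0.989, edgeR) and -1.14 over GFP (SE 0.63, interval -2.57 to 0.29). Without GFP replicate 1 the value over GFP was 0.021. Without untreated replicate 1 the value over untreated was -0.91, and with no filter on low counts CCND2 passed in that comparison (-2.04, adjusted p = 0.0125, edgeR), as did 0.455% of all genes.

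CCND3 encodes cyclin D3 (ENSG00000112576.8; chromosome 6, 41934934 to 42050357, minus strand). It had 40.3 and 38.5 CPM in CRNN cells, 54.5 and 24.8 CPM in GFP cells, and 46.9 and 32.4 CPM in untreated cells. In both controls 1 library lay above and 1 below the CRNN pair. The fitted log2 fold change was -0.014 (SE 0.38, interval -0.88 to 0.85) over GFP and -0.0098 (SE 0.38) over untreated. Like CCND1, CCND3 was higher in replicate 1 than in replicate 2 of both controls.

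Summed per kb, the 3 D-type cyclins came to 55.8 and 55.7 CPM per kb in the CRNN libraries. They came to 119 and 59.8 CPM per kb in the GFP libraries and to 133 and 68.8 in the untreated libraries. GFP replicate 2 was thus close to the CRNN pair, and both first replicates of the controls had the largest sums. CCND1 made up 56.6% and 57.7% of the sum in CRNN cells, 64.8% and 72.1% in GFP cells, and 61.8% and 64.6% in untreated cells. CCND3 took 35.6% and 34.1% in CRNN cells, 22.5% and 20.5% in GFP cells, and 17.4% and 23.2% in untreated cells. In these shares, as in the level of CCND1, the CRNN libraries did not overlap the other 4, while the level of CCND3 itself did.

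**Figure D2:**
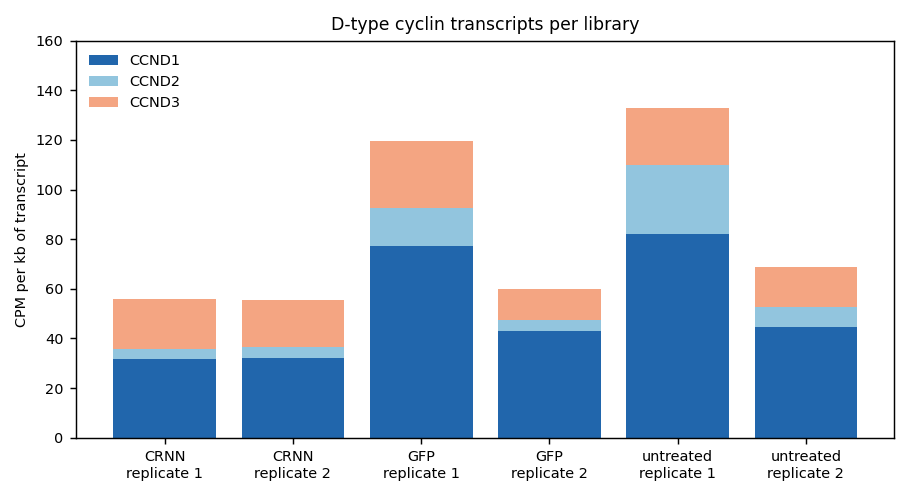
D-type cyclin transcripts in CPM per kb of canonical transcript, stacked for each library from 0. The CRNN libraries reach 55.8 and 55.7, GFP replicate 2 reaches 59.8, and untreated replicate 1 has the highest stack at 133 with the thickest CCND2 layer.

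Over the 6 libraries the highest value exceeded the lowest by 1.69-fold for CDK4 and 1.36-fold for CDK6, the kinases that D-type cyclins activate, against 2.601-fold for CCND1. CDK4 (ENSG00000135446.12; chromosome 12, 57747727 to 57756013, minus strand) had 117 and 119.6 CPM in CRNN cells, 141 and 83.4 CPM in GFP cells, and 105 and 126 CPM in untreated cells. The CRNN pair lay inside the range of each control pair. The log2 fold change was 0.077 (SE 0.31, interval -0.62 to 0.78) over GFP and 0.037 (SE 0.31) over untreated. CDK6 (ENSG00000105810.5; chromosome 7, 92604921 to 92836573, minus strand) had 92.1 and 90.4 CPM in CRNN cells, 98.4 and 123 CPM in GFP cells, and 92.5 and 95.8 CPM in untreated cells. The CRNN pair was lowest, with its upper library just under untreated replicate 1. After correction of GC content and length it overlapped both the GFP and the untreated pair, and untreated replicate 1 was lowest. On the log2 scale the fold change was -0.28 (SE 0.25, interval -0.85 to 0.30) over GFP and -0.045 (SE 0.25) over untreated. Per kb the CDK4 transcript exceeded that of CDK6 by 7.96 and 8.28 times in CRNN cells, 8.97 and 4.25 times in GFP cells, and 7.10 and 8.22 times in untreated cells.

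CDKN1A encodes p21, an inhibitor induced by p53 and by other stress and differentiation signals (ENSG00000124762.9; chromosome 6, 36676460 to 36687337, plus strand). It had 14.5 and 17.1 CPM in CRNN cells, 21.2 and 11.8 CPM in GFP cells, and 62.0 and 9.25 CPM in untreated cells. The untreated pair held both the highest and the lowest of the 6 values, 6.69-fold apart. The fitted log2 fold change was -0.068 (SE 0.70, interval -1.65 to 1.51) over GFP and -1.17 (SE 0.70, interval -2.76 to 0.41) over untreated. Without untreated replicate 1 the value over untreated was 0.78, of the other sign, and did not pass. Without untreated replicate 2 it was -1.96 (adjusted p = 0.00942, edgeR).

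CDKN1B encodes p27, which is controlled to a large part by degradation of the protein (ENSG00000111276.6; chromosome 12, 12685498 to 12722369, plus strand). It had 45.1 and 53.4 CPM in CRNN cells, 39.2 and 50.9 CPM in GFP cells, and 18.1 and 47.8 CPM in untreated cells. The low value of untreated replicate 1 stood apart from the other 5 libraries. Its log2 fold change was 0.13 (SE 0.42, interval -0.82 to 1.08) over GFP and 0.58 (SE 0.42, interval -0.38 to 1.53) over untreated, or 0.045 without untreated replicate 1. CDKN1B and CDKN1A ran opposite ways in untreated replicate 1. Per kb the ratio of CDKN1B to CDKN1A was 2.73 and 2.74 in CRNN cells, 1.62 and 3.79 in GFP cells, and 0.257 and 4.54 in untreated cells.

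CDKN2A (ENSG00000147889.12; chromosome 9, 21967752 to 21995301, minus strand) had 24.4 and 27.9 CPM in CRNN cells, 28.7 and 23.2 CPM in GFP cells, and 31.2 and 24.9 CPM in untreated cells. All 3 pairs overlapped, and the highest library exceeded the lowest by 1.34-fold, the smallest range among the members. Its log2 fold change was 0.010 (SE 0.27, interval -0.60 to 0.62) over GFP and -0.10 (SE 0.27, interval -0.71 to 0.51) over untreated. A gene count joins the transcripts for p16 and for ARF, the other product of the locus, and cannot separate them.

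The inhibitors CDKN1A and CDKN1B and the kinase CDK4 had their promoters in the reference table, and these are shown because the levels of the inhibitors parted in untreated replicate 1 and because CDK4 is a textbook target of MYC. Each line gives the 250 bases before the RefSeq start on GRCh38.p14, 5′ to 3′ on the gene's own strand. Capitals mark matches on either strand to the E-box letters CACGTG that MYC and MAX bind, or to the GC box letters GGGCGG that SP1 binds. The CDK4 window is chr12:57752311-57752560 on the minus strand, the CDKN1A window is chr6:36678464-36678713 on the plus strand, and the CDKN1B window is chr12:12717118-12717367 on the plus strand.
CDK4: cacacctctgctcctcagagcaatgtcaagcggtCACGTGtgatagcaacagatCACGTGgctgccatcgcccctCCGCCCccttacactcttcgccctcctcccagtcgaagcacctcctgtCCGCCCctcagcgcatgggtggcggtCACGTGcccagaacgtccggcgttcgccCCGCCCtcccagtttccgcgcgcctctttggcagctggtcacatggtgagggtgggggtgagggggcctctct
CDKN1A: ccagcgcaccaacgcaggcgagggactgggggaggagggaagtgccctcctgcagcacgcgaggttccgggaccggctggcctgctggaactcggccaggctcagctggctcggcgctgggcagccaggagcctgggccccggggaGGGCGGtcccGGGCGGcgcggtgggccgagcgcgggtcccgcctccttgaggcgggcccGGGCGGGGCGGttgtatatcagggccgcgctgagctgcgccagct
CDKN1B: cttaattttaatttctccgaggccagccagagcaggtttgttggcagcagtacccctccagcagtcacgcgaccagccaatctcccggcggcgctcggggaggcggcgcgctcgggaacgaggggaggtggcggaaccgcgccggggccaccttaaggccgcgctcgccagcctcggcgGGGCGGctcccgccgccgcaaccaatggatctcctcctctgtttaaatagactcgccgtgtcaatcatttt
Of the 10 members, 6 had a window whose start lay within 50 bases of the canonical GENCODE start (CCND3, CDK4, CDK6, CDKN1A, CDKN1B and CDKN2A). The E-box was found in 1 of them, CDK4, with 3 matches, and in 6.34% of all 35116 windows of the table. The GC box was found in 6 of 6, and in 42.6% of all windows. The letters TGACGTCA, TGANTCA and TTTNGCGC, of the sites for CREB, AP-1 and E2F, were in none of the 6 and in 1.65%, 6.57% and 1.51% of all windows. A match of letters is a description and shows no binding.

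RB1, the pocket protein that D-type cyclin kinases inactivate (ENSG00000139687.9; chromosome 13, 48303744 to 48599436, plus strand), had 66.6 and 65.5 CPM in CRNN cells, 45.6 and 70.2 CPM in GFP cells, and 54.7 and 70.3 CPM in untreated cells. Both controls spanned the CRNN pair. The fitted log2 fold change was 0.19 (SE 0.29, interval -0.48 to 0.86) over GFP and 0.080 (SE 0.29, interval -0.59 to 0.75) over untreated. After correction of GC content and length neither control spanned the CRNN pair. The levels were then 72.0 and 66.7 CPM in CRNN cells, 62.3 and 65.1 in GFP cells, and 53.9 and 69.2 in untreated cells.

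MYC (ENSG00000136997.10; chromosome 8, 127735434 to 127742951, plus strand) had 128 and 148 CPM in CRNN cells, 128 and 103 CPM in GFP cells, and 595 and 136 CPM in untreated cells. A single library, untreated replicate 1, stood far above each of the other 5. The log2 fold change was 0.26 (SE 0.56, interval -1.003 to 1.52) for CRNN over GFP and -1.41 (SE 0.56, interval -2.69 to -0.12, unadjusted p = 0.0349, adjusted p = 0.989, edgeR) for CRNN over untreated. For GFP over untreated it was -1.66 (SE 0.57, interval -2.95 to -0.37, unadjusted p = 0.0173, adjusted p = 0.711, edgeR). Without untreated replicate 1 these last 2 values were 0.027 and -0.25, and without untreated replicate 2 they were -2.10 (adjusted p = 0.00454, edgeR) and -2.38 (adjusted p = 0.00235). With no filter on low counts MYC passed in GFP over untreated (-1.72, adjusted p = 0.0286, edgeR), as did 0.583% of all genes.

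**Figure D3:**
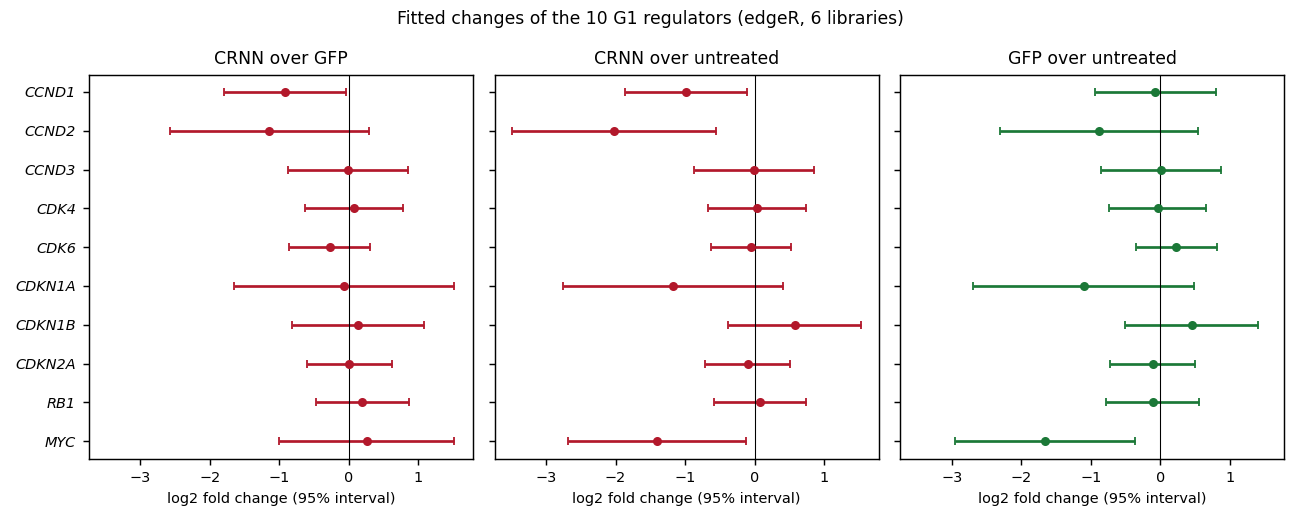
Log2 fold change of each member with its 95% interval (edgeR, all 6 libraries in the fit), for CRNN over GFP, CRNN over untreated and GFP over untreated. The intervals of CCND1 in both CRNN comparisons, of CCND2 and MYC over untreated, and of MYC in GFP over untreated do not reach 0, none of them passing after adjustment over all genes.

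Members whose library pairs did not overlap numbered 3 of 10 in CRNN over GFP (CCND1 and CDK6 below, MYC above, with 128.1 against 127.9 CPM at the nearest point), against 38.1% of all tested genes, 18.7% below and 19.4% above. In CRNN over untreated there were 3 of 10 (CCND1, CCND2 and CDK6, all below), against 37.1%, 18.4% below and 18.7% above. In GFP over untreated there were 2 of 10 (CDK6 above, MYC below), against 31.6%, 15.5% below and 16.2% above. These shares lie near those of all genes. After correction of GC content and length the CDK6 pairs overlapped in both CRNN comparisons, and the MYC pairs overlapped in CRNN over GFP. RB1 then lay above GFP without overlap (72.0 and 66.7 CPM in CRNN cells, 62.3 and 65.1 in GFP cells). CDKN1B in GFP cells lay just above the untreated pair (50.6 and 49.1 against 17.9 and 48.97 CPM). The share of all genes not overlapping after this correction was not computed. The median log2 fold change of the 10 members was -0.0021 in CRNN over GFP, -0.074 in CRNN over untreated and -0.091 in GFP over untreated, against -0.0017, -0.0091 and -0.013 over all tested genes. The comparisons share libraries, so their values are not independent of each other.

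Leaving out single libraries moved the members unequally. Without untreated replicate 2, so that replicate 1 stood alone for the group, 4 members passed in CRNN over untreated (edgeR): MYC, CDKN1A and CCND2 lower and CDKN1B higher, against 957 genes of 17739, or 5.39%. In GFP over untreated 2 passed, MYC and CDKN1A, both lower, against 966 genes, or 5.45%. The lone library is then assumed to vary like those of the other groups. Without untreated replicate 1, 0 members passed in CRNN over GFP, CRNN over untreated or GFP over untreated (edgeR), against 0.0736%, 0.0226% and 0% of all genes. At an unadjusted p under 0.05 there were then 2 members in CRNN over GFP, CCND1 and CCND2, both lower, against 7.16% of all genes. There were 0 in each of the other comparisons, against 1.59% and 3.02%. CCND1 had a negative log2 fold change in both CRNN comparisons with each library left out, between -1.26 and -0.43 over GFP and between -1.36 and -0.48 over untreated.

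**Figure D4:**
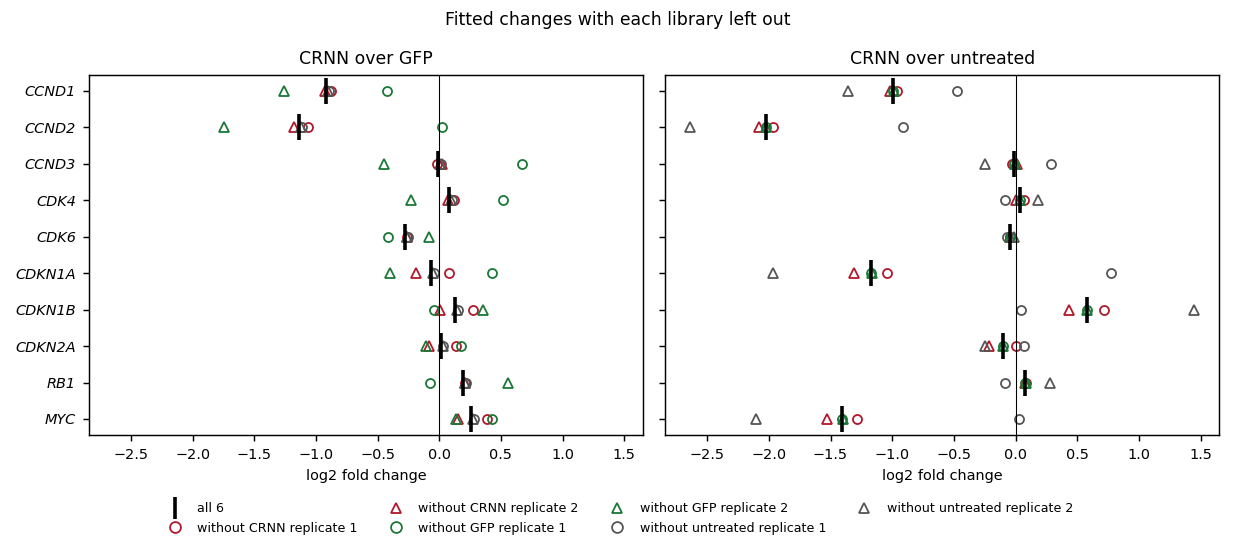
Log2 fold change of each member with all 6 libraries (black bar) and with each library left out in turn (open symbols, colour for the group and shape for the replicate of the library left out). For CCND1 all symbols lie left of 0 in both panels, while CCND2 over GFP moves to 0.021 without GFP replicate 1 and MYC and CDKN1A over untreated move to 0.027 and 0.78 without untreated replicate 1.

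The genes around the members were taken as lists, and no gene of these lists passed over all genes in any of the 3 comparisons. Of the other cyclin E, CDK2 and inhibitor genes, 10 of 11 were tested, with a median log2 fold change of 0.089 for CRNN over GFP and -0.26 over untreated. CCNE2, an E-type cyclin that partners CDK2 in late G1, had 7.80 and 7.76 CPM in CRNN cells, 6.65 and 6.31 in GFP cells, and 17.6 and 9.65 in untreated cells (log2 fold change -0.81, SE 0.34, for CRNN over untreated). CDK7, the kinase that activates other CDKs, had 33.1 and 39.2 CPM in CRNN cells, 23.1 and 35.2 in GFP cells, and 98.4 and 35.8 in untreated cells. CDKN1C had at most 0.280 CPM in any library. Among 12 RB relatives and E2F factors the medians were 0.068 and -0.060. E2F3, an activating E2F, had 15.3 and 13.0 CPM in CRNN cells, 18.4 and 16.8 in GFP cells, and 30.2 and 18.1 in untreated cells. Its CRNN pair lay below both controls, as did that of 5.67% of all tested genes.

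The E2F-driven genes of S phase, which stand downstream of the circuit, had medians of 0.084 and 0.036 in the same order (19 of 20 tested), with 12 and 10 of them positive. TYMS, the thymidylate synthase, was lowest among them in CRNN over GFP at -0.68 (SE 0.30, unadjusted p = 0.0521, edgeR), and PCNA, the sliding clamp of replication, highest at 0.36 (SE 0.26). Over untreated the CRNN values were 0.083 (SE 0.30) for TYMS and 0.13 (SE 0.26) for PCNA. The mean of TYMS was 22.1 CPM in CRNN cells, 35.5 in GFP cells and 20.9 in untreated cells, so GFP cells stood apart. The mean level of this list per library, as centred log2 CPM, lay between -0.16 and 0.13. The mitotic genes had a median of -0.071 over GFP and 0.63 over untreated (16 tested), and their level was -1.34 in untreated replicate 1 against values from 0.089 to 0.50 elsewhere. PLK1, a kinase of mitotic entry, had 131 and 141 CPM in CRNN cells, 189.9 and 152 in GFP cells, and 35.2 and 106 in untreated cells, so that both untreated libraries lay below the other 4.

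The list of growth factor and ERK genes holds EGFR, its ligands, and targets and feedback inhibitors of ERK. They were negative in 17 of 17 for CRNN over GFP, with a median of -0.83, against 8220 of 16396 over all genes. The list was chosen with earlier results of these data known, so this count is a description. An unadjusted p under 0.05 was found for 2, SPRY4, a feedback inhibitor of ERK signalling (-3.02, SE 1.05), and EGR1, an immediate early factor (-0.83, SE 0.34), against 4.39% of all genes. SPRY4 had 0.725 and 0.446 CPM in CRNN cells, from 16 and 10 counts, 8.36 and 1.04 CPM in GFP cells, and 9.13 and 1.60 CPM in untreated cells. GFP replicate 2 was thus close to the CRNN pair. Over untreated 16 of 17 were negative, with a median of -1.79, against 8351 of 16396 over all genes, and 10 had an unadjusted p under 0.05 (edgeR), all lower, against 4.48% of all genes. DUSP5, a phosphatase that acts on ERK, had 23.4 and 21.98 CPM in CRNN cells, 50.7 and 15.2 in GFP cells, and 347 and 32.1 in untreated cells. Its highest value was again in untreated replicate 1, and the CRNN and GFP pairs overlapped. The level of this list was -0.56 and -0.66 in CRNN cells, 0.84 and -0.68 in GFP cells, and 1.49 and -0.43 in untreated cells. GFP replicate 2 thus lay slightly below both CRNN libraries. The level of the list was high in the same 2 libraries in which CCND1 and CCND2 were highest, GFP replicate 1 and untreated replicate 1, as the map of centred levels shows. The part of these signals in the level of CCND1 was not tested.

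The p53 target genes gave a median of -0.059 over GFP and 0.052 over untreated (17 tested). ZMAT3, an RNA-binding protein induced by p53, had 12.7 and 10.3 CPM in CRNN cells, 17.1 and 21.3 in GFP cells, and 23.6 and 13.1 in untreated cells (log2 fold change -0.74, SE 0.34, for CRNN over GFP). Its CRNN pair lay below both controls, as did that of 5.67% of all tested genes. GADD45A, a stress gene that p53 induces, had 10.2 and 9.45 CPM in CRNN cells, 12.4 and 11.2 in GFP cells, and 56.9 and 8.57 in untreated cells, with its high value in the library where CDKN1A was highest. Members of the list went both ways in that library: AEN, a nuclease, was highest there at 102 CPM, and SESN1, a sestrin, lowest at 2.597 CPM. The MYC target genes had a level of 0.46 in untreated replicate 1, against -0.18 to -0.036 elsewhere, and medians of -0.036 over GFP and -0.31 over untreated (12 of 13 tested). CAD, the enzyme that starts pyrimidine synthesis, had 112 and 102 CPM in CRNN cells, 179 and 128 in GFP cells, and 85.6 and 95.5 in untreated cells. NOP16, a nucleolar protein, had 19.6 and 22.8 CPM in CRNN cells, 22.5 and 19.9 in GFP cells, and 56.0 and 23.8 in untreated cells (log2 fold change -0.91, SE 0.39, for CRNN over untreated), with untreated replicate 2 close to the CRNN pair. In the MYC dimer network (10 of 11 tested) the medians were -0.0021 and -0.0031, and MNT, which opposes MYC at E-boxes, had -0.70 (SE 0.31, unadjusted p = 0.0480, edgeR) over GFP. The genes for turnover of cyclins, p27 and MYC had medians of 0.13 and 0.085 (10 tested). Among them FBXO4, a ubiquitin ligase subunit for cyclin D1, was at 0.64 (SE 0.31, unadjusted p = 0.0693, edgeR) over GFP. Over untreated FBXO4 was at 0.030 (SE 0.30) in CRNN cells and at -0.61 (SE 0.31) in GFP cells.

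**Figure D5:**
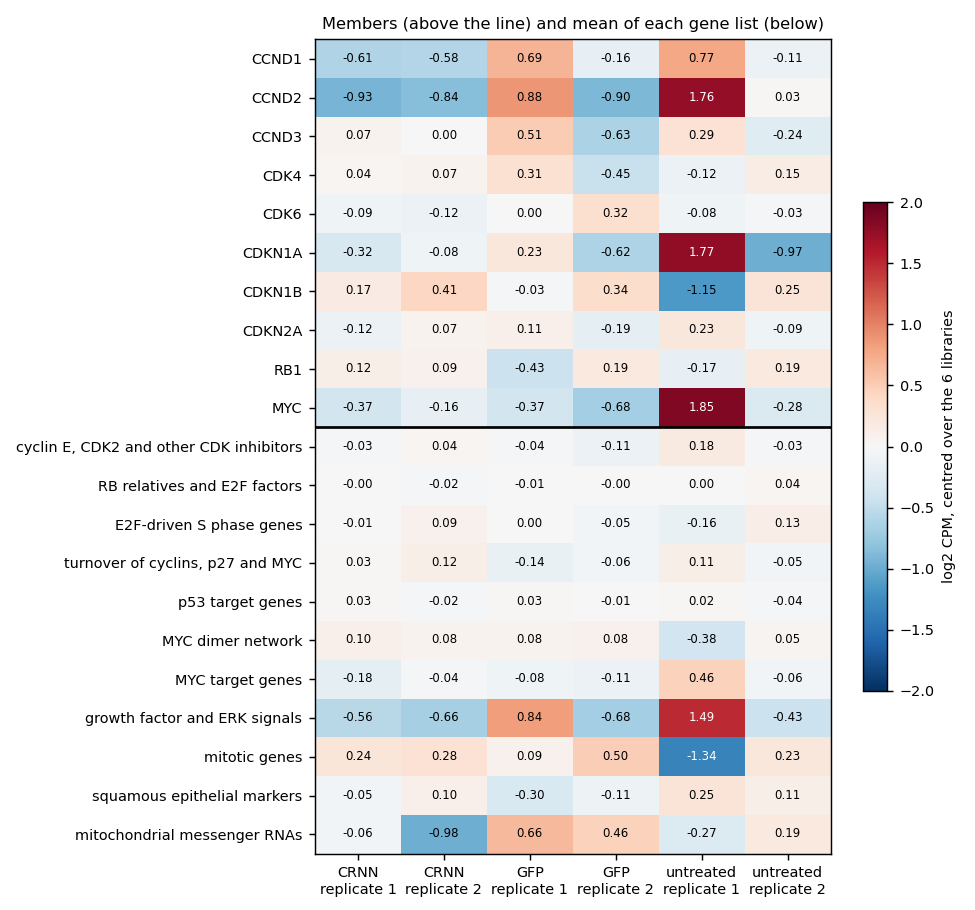
Log2 CPM centred over the 6 libraries for the 10 members (above the line) and the mean of each gene list (below), one column per library, red above and blue below the gene's own average. In untreated replicate 1 MYC, CDKN1A and CCND2 are at 1.85, 1.77 and 1.76 and CDKN1B at -1.15, beside 1.49 for growth factor and ERK genes and -1.34 for mitotic genes.

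The genes nearest in pattern were sought for CCND1, CDKN1A and MYC among 11464 named genes, by the root-mean-square difference of centred log2 CPM over the 6 libraries. Nearest to CCND1 were MPRIP (0.117), SH2D3A (0.122) and ACP7 (0.133). MPRIP had 183 and 153 CPM in CRNN cells, 353 and 229.8 in GFP cells, and 394 and 212 in untreated cells. Nearest to CDKN1A were PPP2R5B (0.156), TIMP3 (0.179) and ST3GAL1 (0.203). Nearest to MYC were HSPB8 (0.0655), TPM1 (0.101) and ALDH1B1 (0.105), each high in untreated replicate 1. HSPB8 had 17.8 and 18.5 CPM in CRNN cells, 18.5 and 14.1 in GFP cells, and 83.2 and 18.3 in untreated cells.

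Some members overlap other genes, and their counts could have gained or lost reads there. LTO1 overlaps CCND1 on the opposite strand, with between 273 and 1065 counts, and TSPAN31 overlaps CDK4, with between 153 and 515. LPAR6, inside an intron of RB1 on the opposite strand, had between 30 and 152 counts, and CDKN2B-AS1 beside CDKN2A between 24 and 59. The libraries were stranded, but the strand setting of the counting is not given in the sources used here.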

How the data were processed

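Stranded total RNA libraries of 6 Cal27 cultures were analysed from the deposited table of raw read counts per gene. Per the submitters' processing notes, the tools included STAR 2.6 and HTSeq 0.6.1, and the builds named were hg19, GRCh37 and GRCh38, with no role given; the annotation and strand setting are not given in the sources used here. Of 57820 identifiers, 51996 matched a name in GENCODE 44, and coordinates are those of GENCODE 44 on GRCh38.

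Genes were kept with filterByExpr (minimum count 10, minimum total 15), which left 16396 genes and 99.86% of counts. Counts were scaled with TMM and tested with edgeR 4.0.16 (R 4.3.3; glmQLFit and glmQLFTest) with all 6 libraries in the fit, group as the only term, and Benjamini-Hochberg adjustment over all tested genes. The common dispersion had a square root of 0.2886. DESeq2 1.42.0 and limma 3.58.1 were alternatives. The fit was also run on simulated counts with equal spread in all libraries and no outlying library. That run therefore does not bear on a library like untreated replicate 1. Intervals are 95%, and those and the floor of 3 counts cover counting and library spread only. Per kb values used GENCODE canonical transcripts. Promoter sequences are those of RefSeq on GRCh38.p14.

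The members and gene lists were chosen with earlier results of these data known. All 10 members were named; from each list up to 4 genes with the smallest p in CRNN over GFP and up to 2 in each other comparison could be named, with 3 nearest genes each for CCND1, CDKN1A and MYC. Markers, CDKN1C and overlapping genes were named after their values were seen. The series' design text calls the samples biological replicates without saying what separates them, so p-values measure only the spread between these samples.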

Additional observations from a re-analysis of the deposited data

How the results depend on the processing

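With 2 libraries a group, single libraries decided most values, and the causes of the changes below were not tested. Under RLE factors no direction or call of a member changed. Upper-quartile factors, which shifted the median of all genes by under 0.1 log2 units, turned CDKN2A in CRNN over GFP to -0.016, CCND3 and CDK6 in CRNN over untreated to 0.082 and 0.031, and CCND1, CDK4 and CDKN2A in GFP over untreated to 0.063, 0.062 and 0.0003. Library totals alone turned CDKN2A in CRNN over GFP to -0.019 and CCND3 in CRNN over untreated to 0.024, and left 1 member not overlapping between GFP and untreated. With no filter on low counts 34, 152 and 195 genes passed in CRNN over GFP, CRNN over untreated and GFP over untreated, with 1 member in each of the last 2 (CCND2 and MYC), and CCND3 turned to 0.023 in CRNN over GFP and -0.045 in GFP over untreated. A filter at 1 CPM turned CDKN2A in CRNN over GFP to -0.015. DESeq2 passed 22, 7 and 29 genes, and limma-voom turned CCND3 to 0.082, 0.014 and -0.068. With GC and length correction 1 gene passed in CRNN over GFP, CDK4 turned to -0.067 and CDKN2A to -0.12 there, CDK4 to -0.021 and CDK6 to 0.051 in CRNN over untreated, and CCND3, CDK4 and RB1 to -0.031, 0.046 and 0.049 in GFP over untreated. With only the 2 groups compared in the fit, 13 genes passed in CRNN over GFP.

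Replicate numbers are shared by the groups. Deviations of same-numbered libraries correlated at 0.255 (CRNN and GFP), -0.0678 (CRNN and untreated) and 0.193 (GFP and untreated) over 11665 genes. With 2 libraries a group, these values cannot decide whether the numbers pair the samples. The replicate block gave 4, 1 and 0 genes and 0 members passed, and turned CCND3 to 0.088, 0.036 and -0.053 and CDKN1A in CRNN over GFP to 0.13. Block and GC correction together passed 1 gene in CRNN over GFP, where CCND3, CDK4, CDKN1A and CDKN2A turned to 0.042, -0.059, 0.061 and -0.12. They turned CDK4 and CDK6 to -0.026 and 0.051 in CRNN over untreated, and CCND3, CDK4 and RB1 to -0.054, 0.033 and 0.054 in GFP over untreated.

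Leaving out 1 library at a time, genes passed between 0 and 15 in CRNN over GFP, 1 and 957 in CRNN over untreated, and 0 and 966 in GFP over untreated, and members between 0 and 4 and 0 and 2 in the last 2. In CRNN over GFP the log2 fold changes that turned sign lay for CCND2 between -1.75 and 0.021, CCND3 between -0.45 and 0.67, CDK4 between -0.23 and 0.51, CDKN1A between -0.40 and 0.43, CDKN1B between -0.040 and 0.36, CDKN2A between -0.11 and 0.18 and for RB1 between -0.078 and 0.56. In CRNN over untreated the log2 fold changes that turned sign lay for CCND3 between -0.25 and 0.28, CDK4 between -0.086 and 0.18, CDKN1A between -1.96 and 0.78, CDKN2A between -0.25 and 0.071, RB1 between -0.087 and 0.28 and for MYC between -2.10 and 0.027. In GFP over untreated the log2 fold changes that turned sign lay for CCND1 between -0.56 and 0.42, CCND2 between -2.04 and 0.20, CCND3 between -0.68 and 0.44, CDK4 between -0.48 and 0.27, CDKN1A between -1.91 and 0.82, CDKN1B between -0.11 and 1.303, CDKN2A between -0.28 and 0.038 and for RB1 between -0.48 and 0.16.

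Leaving out GFP replicate 1 and untreated replicate 1 together, chosen after seeing the data, leaves the CRNN pair as the only source of spread. That pair lay closer than the others, with a median gap of 0.19 log2 units against 0.47 in GFP and 0.43 in untreated cells. The fit holds no spread of the controls, so its counts cannot show that groups differed. In CRNN over GFP, CRNN over untreated and GFP over untreated 1040, 127 and 142 genes passed (edgeR), with 1 member in each. The members were CCND3 at 0.67, CCND2 at -0.91 and CCND2 at -0.93. The share of all genes passing in this fit was not computed, so the member counts have no rate to be set against. CCND2, CDKN1A, CDKN1B and RB1 turned to 0.019, 0.43, -0.041 and -0.080 in CRNN over GFP. CCND3, CDK4, CDKN1A, CDKN2A, RB1 and MYC turned to 0.28, -0.087, 0.78, 0.070, -0.088 and 0.025 in CRNN over untreated, and CCND3 and CDKN1A to -0.39 and 0.35 in GFP over untreated.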
